A study of Mus musculus with 36 samples.

Results

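Genes of the blood vessel wall and of vessel growth (10 in all: Vegfa, Angpt1, Apln, Flt1, Kdr, Tek, Aplnr, Pecam1, Cdh5 and Emcn) were followed through mouse heart development. They were chosen by name, and all array features (probe sets) carrying these symbols were taken, 17 of the 45101 on the Affymetrix Mouse430 2.0 array. Their level was at least once above a stage mean of 5 on the log2 scale, the limit used here for expression, for 14 of these probe sets, as for 20685 of all. Whole heart tissue of outbred OF1 (Oncins France 1) mice, with no transgene or treatment, was measured at 12 stages with 3 arrays each, 36 in all: every day from E10.5 to E19.5, and in young (10 weeks) and old adults. The old animals were 14 months old by the series text and 10 months by the methods. At E10.5 and E11.5 all 3 arrays carried RNA labelled as mixed males and females, and from E12.5 on the arrays were labelled female, male and mixed, so part of the spread at a stage may come from sex. The methods describe 3 pups per time point as biological replicates.

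Endothelial cells line the heart chambers and all of its vessels. VEGF-A is the main growth signal for them and acts through its receptor Kdr (VEGFR2), while Flt1 (VEGFR1) binds the same ligand tightly, signals little and acts largely as a trap. Angiopoietin-1 is made by heart muscle and perivascular cells and steadies vessels through the endothelial receptor Tek (Tie2). Apelin is a peptide of sprouting endothelium, and its receptor Aplnr marks veins and the sinus venosus endothelium from which many coronary vessels grow. Pecam1 and Cdh5 (VE-cadherin) hold endothelial cells together, and Emcn (endomucin) is a surface sialomucin of veins, capillaries and endocardium.

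The values are log2 intensities, on which 1 unit is a doubling, and a difference is always given as the later minus the earlier stage. Levels of different probe sets were not compared with each other, since probes differ in affinity. In whole tissue, fewer cells of a type and less RNA per cell cannot be told apart. The 7 cardiomyocyte genes measured had stage means between 10.1 and 13.7, whereas the 4 liver genes measured (Alb, Afp, Apoa1 and Ttr) stayed between 3.27 and 4.13, below the expression limit at every stage. The extraction protocol of the labels names liver, and the sample labels and the methods name heart. The spiked hybridization controls, which are added in a fixed amount and hold no mouse RNA, did not have the same level at all stages: the mean of E10.5 was 9.90 ± 0.39 and that of E19.5 11.2 ± 0.21, and the young adult arrays had 12.2 ± 0.22 and the old 11.4 ± 0.20 (SD, n = 3). Sample titles also change their form from the E16.5 female array on, and whether this marks a batch is not stated.

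**Figure D1:**
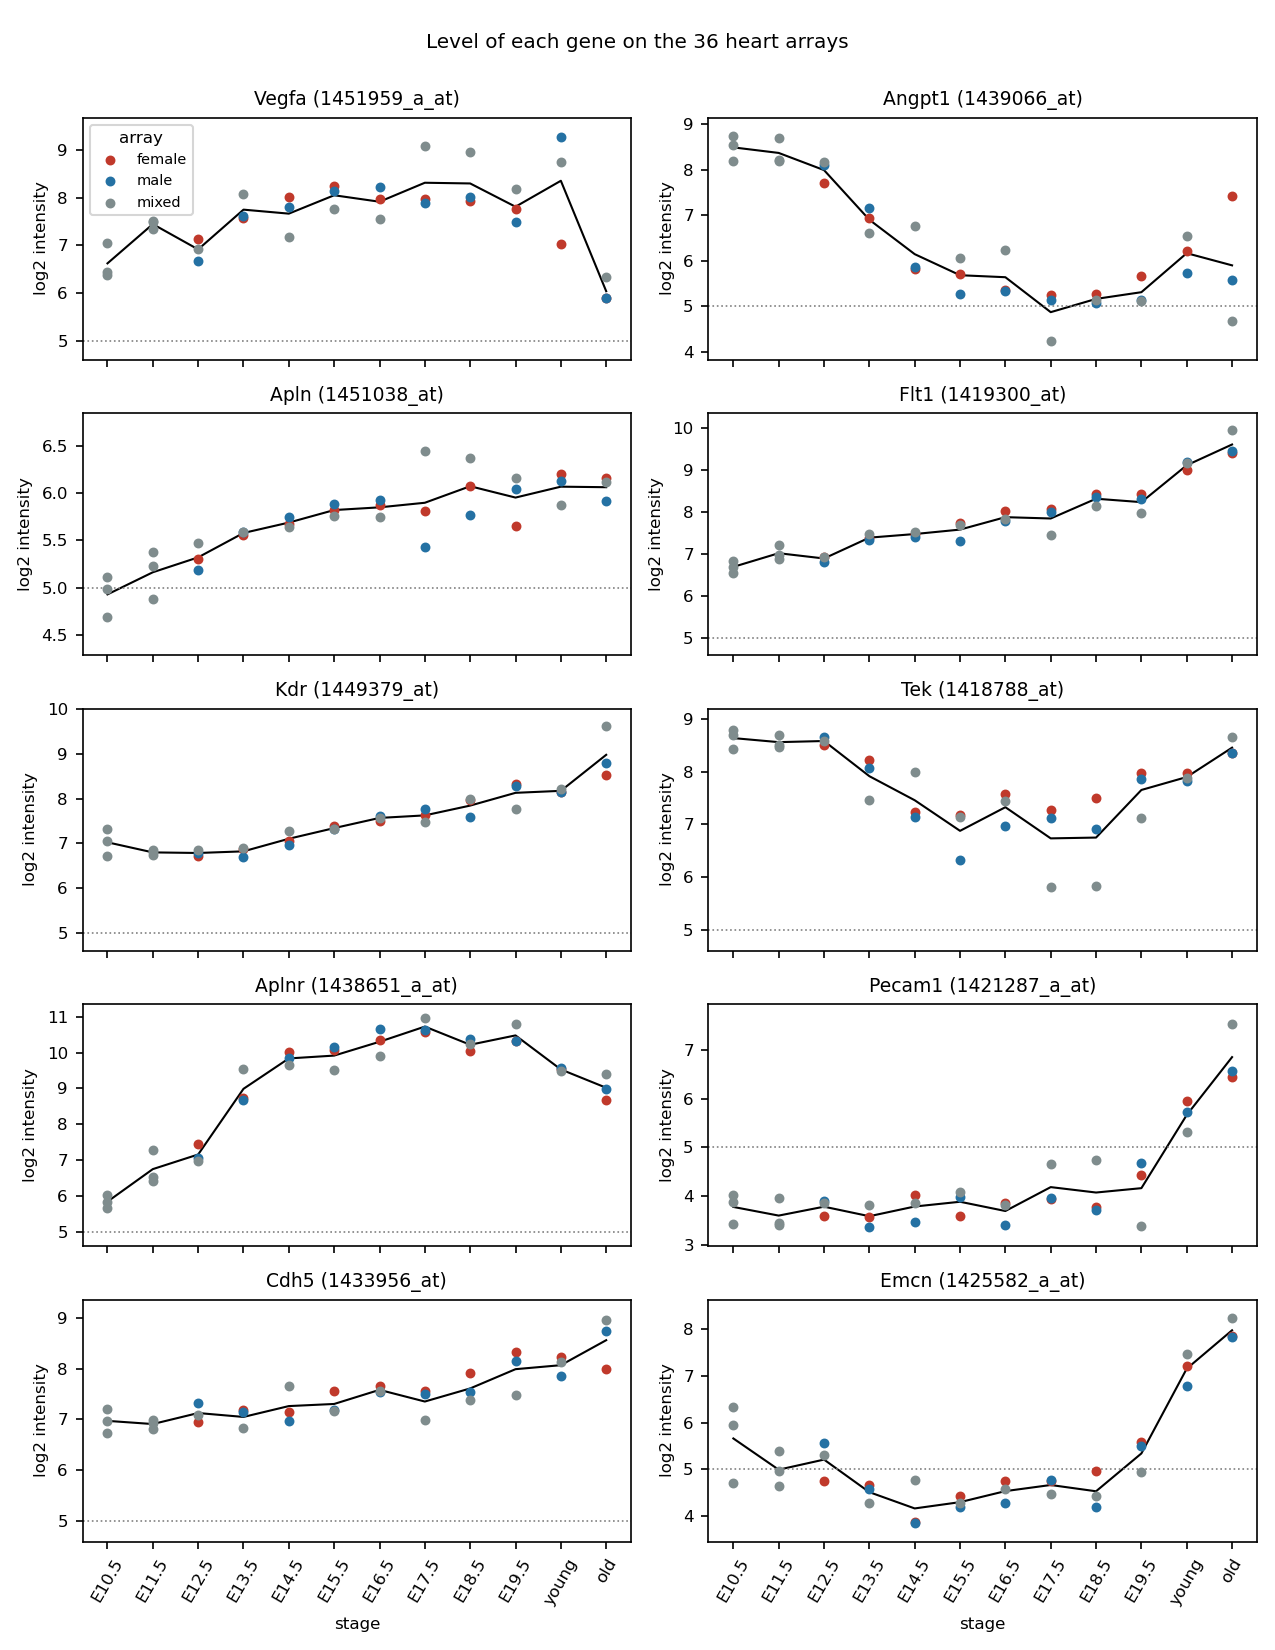
Level (log2 intensity, vertical axis) of the probe set read for each gene on every array, by stage (horizontal axis); points are arrays, coloured by the sex label, lines join the stage means and the dotted line is the expression limit of 5. Between E10.5 and E17.5, Aplnr climbed from 5.84 to 10.7 while Angpt1 went from 8.49 to 4.87, and Pecam1 was above 5 only in adults.

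Promoter sequences are shown for 4 of the endothelial genes, because Kdr and Flt1 followed each other closely over the stages while Tek and Emcn had their lowest means in the middle or late embryonic days. The reference sequences are from RefSeq (GRCm38.p6), run 5′ to 3′ on the strand of the gene and span 250 bases before to 50 after the annotated start; capitals mark GGAA or its reverse complement TTCC, the core recognised by ETS factors, a family that drives many endothelial genes. Of the 10 genes, 6 had a promoter in the table used (Vegfa, Kdr, Flt1, Tek, Emcn and Apln); Angpt1, Pecam1, Cdh5 and Aplnr did not. The Kdr promoter is chr5:75978406-75978705 (minus strand), that of Flt1 chr5:147725962-147726261 (minus strand), that of Tek chr4:94739039-94739338 (plus strand) and that of Emcn chr3:137340828-137341127 (plus strand).
Kdr: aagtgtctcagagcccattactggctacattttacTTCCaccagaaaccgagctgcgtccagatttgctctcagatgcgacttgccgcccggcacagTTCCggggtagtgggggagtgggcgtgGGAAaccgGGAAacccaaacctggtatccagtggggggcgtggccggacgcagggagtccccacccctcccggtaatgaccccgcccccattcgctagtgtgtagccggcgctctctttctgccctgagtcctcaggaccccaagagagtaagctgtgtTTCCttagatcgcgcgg
Flt1: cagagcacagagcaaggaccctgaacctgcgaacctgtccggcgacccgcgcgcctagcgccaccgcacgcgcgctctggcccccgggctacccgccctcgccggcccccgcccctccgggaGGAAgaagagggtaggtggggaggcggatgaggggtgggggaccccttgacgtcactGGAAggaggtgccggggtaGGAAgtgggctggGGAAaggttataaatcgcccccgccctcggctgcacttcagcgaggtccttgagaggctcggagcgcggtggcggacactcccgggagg
Tek: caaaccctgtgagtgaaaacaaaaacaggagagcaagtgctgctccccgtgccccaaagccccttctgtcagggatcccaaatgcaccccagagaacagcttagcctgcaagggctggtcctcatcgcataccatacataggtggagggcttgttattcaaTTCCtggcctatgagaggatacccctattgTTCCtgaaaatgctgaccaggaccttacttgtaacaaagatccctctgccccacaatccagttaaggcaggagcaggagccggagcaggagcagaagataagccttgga
Emcn: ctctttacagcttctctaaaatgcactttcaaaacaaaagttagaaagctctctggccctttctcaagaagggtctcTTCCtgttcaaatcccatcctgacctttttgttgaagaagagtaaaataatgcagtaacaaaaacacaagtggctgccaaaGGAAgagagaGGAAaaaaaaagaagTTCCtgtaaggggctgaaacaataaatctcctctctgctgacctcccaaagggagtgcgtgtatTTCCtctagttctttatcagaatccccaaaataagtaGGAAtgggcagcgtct

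The ETS core was found 5 times in the Kdr window, 4 times in that of Flt1, 2 times in that of Tek and 6 times in that of Emcn, counting both strands. Of all 32851 promoters of this length, 96% held at least 1 match, and 28.6%, 46.3%, 84.6% and 15.7% held at least as many as Kdr, Flt1, Tek and Emcn, so counts like these are found in many promoters. The Flt1 window also holds TGACGTCA, the full cyclic AMP response element, which is palindromic and was found in 1.79% of all promoters. The short hypoxia response core ACGTG, searched on both strands and found in 19.6% of all promoters, is in none of the 4 windows printed. Of the 2 Vegfa windows, that at chr17:46032328-46032627 (minus strand) has no match. The other, at chr17:46025114-46025413 and thus downstream of it within this minus strand gene, has 1. Whether that match acts as such an element was not tested.

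Across development from E10.5 to young adulthood, 13 of the 17 probe sets rose and 1 fell at an adjusted p under 0.05 (limma, Benjamini-Hochberg adjustment over all probe sets), where 35.9% of all probe sets on the array rose and 27.1% fell. The median difference of the 10 genes, each read from its probe set of highest mean, was 1.32 on the log2 scale, beside 0.19 over all probe sets. With the limits the study applied (adjusted p under 1e-05, a log2 difference beyond 2 and a stage mean over 5), 3 probe sets passed, those of Aplnr and Flt1, beside 6.53% of all. Many of these differences were present before birth: between E10.5 and E19.5, 11 member probe sets rose and 2 fell, beside 23.7% and 21.8% of all, and 3 passed the limits of the study (those of Angpt1 and both of Aplnr), beside 2.18%. Between E19.5 and young adulthood, 4 rose and 2 fell, beside 13.6% and 15.5%, and 1 passed those limits, beside 1.45%. From young to old adulthood, 4 rose and 1 fell, beside 3.83% and 3.13%, and none passed them, beside 0.00665%. These contrasts share stages with each other, and the old adult counts rest on single arrays, as given below.

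**Figure D2:**
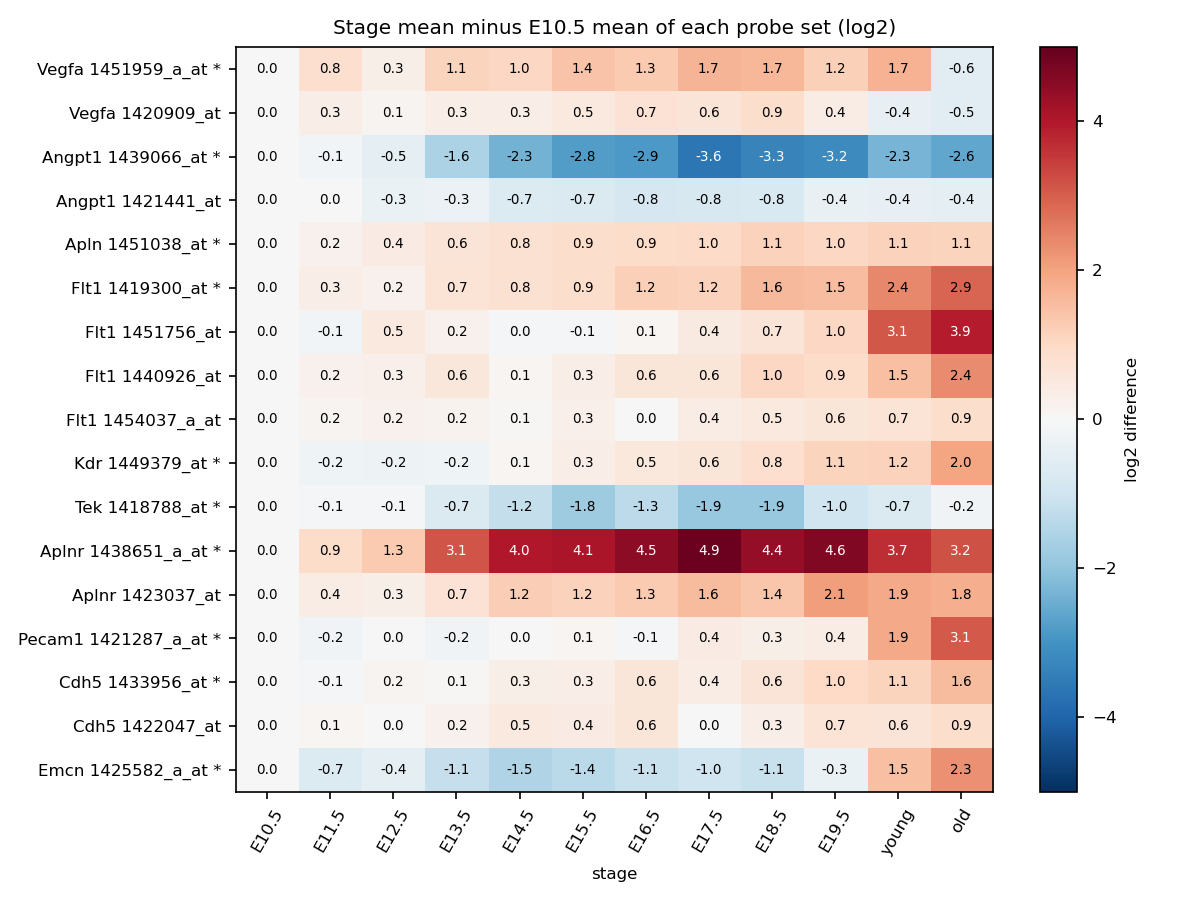
Stage mean minus the E10.5 mean of the same probe set (log2, colour and printed value) for the 17 probe sets (rows) at the 12 stages (columns); an asterisk marks the probe set read for a gene. Aplnr reached 4.9 above its E10.5 mean and Angpt1 3.6 below it, both at E17.5, whereas Pecam1, Emcn, Kdr and all probe sets of Flt1 and Cdh5 had their highest mean in old adults.

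Within the embryonic series, 15 of the 17 probe sets changed over the 10 days (moderated F test in limma, adjusted p under 0.05), where 45.9% of all did. The exceptions were Pecam1 (adjusted p = 0.494) and the dim Flt1 probe set 1454037_a_at (adjusted p = 0.317), which was under 5 at every stage. Single days seldom passed the test. Aplnr rose from E10.5 to E11.5 and again from E12.5 to E13.5, and no other member passed in any of the 9 daily steps in limma. The steps in which Aplnr passed had 2.53% and 1.25% of all probe sets called, and the others, in order, 0.0976% (E12.5), 0.0599% (E14.5), 0.0377% (E15.5), 0.0111% (E16.5), 0.0133% (E17.5), 0% (E18.5) and 1.33% (E19.5). At an unadjusted p under 0.05, between 0 and 4 member probe sets passed in each of those other steps, where between 2.9% and 11.9% of all did.

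Vegfa, the ligand, was read from probe set 1451959_a_at. At E10.5 its arrays had levels of 6.39, 6.44 and 7.04, at E19.5 7.76 (female), 7.48 (male) and 8.20 (mixed). The groups did not overlap, and the difference of 1.19 ± 0.37 (SE, adjusted p = 0.00967 in limma) was a rise, which no longer passed without the mixed E19.5 array (1.00, adjusted p = 0.0608). In young adults the levels were 7.03 (female), 9.29 (male) and 8.75 (mixed), the widest spread of this probe set at any stage (SD 1.18), and in old adults 5.88 (female), 5.89 (male) and 6.34 (mixed). All 3 old arrays were lower than all 3 young arrays, a difference of -2.32 ± 0.37 (adjusted p = 0.000272), or 5.00-fold. It was -2.98 without the female and -1.86 without the male young array, and did not pass in a model of the 6 adult arrays alone (adjusted p = 0.112). The other Vegfa probe set, 1420909_at, showed another course. Its embryonic means lay between 6.73 ± 0.22 (E10.5) and 7.61 ± 0.16 (E18.5), and it fell between E19.5 and young adulthood by 0.76 (adjusted p = 0.00213) and differed by -0.12 between old and young adults (95% interval -0.51 to 0.26, adjusted p = 0.739). The fall with age was therefore seen in 1 of the 2 Vegfa probe sets. On arrays of the same stage, the level of 1451959_a_at went with that of the hybridization controls (r = 0.70 within stages over 36 arrays, permutation p = 2e-05, adjusted 0.000227), and that of 1420909_at did not pass (r = -0.29, permutation p = 0.0984). With the control level as a covariate, the difference of 1451959_a_at between E10.5 and E19.5 was -0.13 (adjusted p = 0.884), that between E10.5 and young adults -0.64 (adjusted p = 0.447), and that between young and old adults -1.48 (adjusted p = 0.00523). The covariate is fitted within stages, where the control level had an SD of 0.39 at E10.5 and 0.22 in young adults. The means of these 2 stages, 9.90 and 12.2, lay much further apart, so the values from E10.5 on reach beyond the range fitted. The same limit applies to the other differences from E10.5 given below with this covariate.

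**Figure D3:**
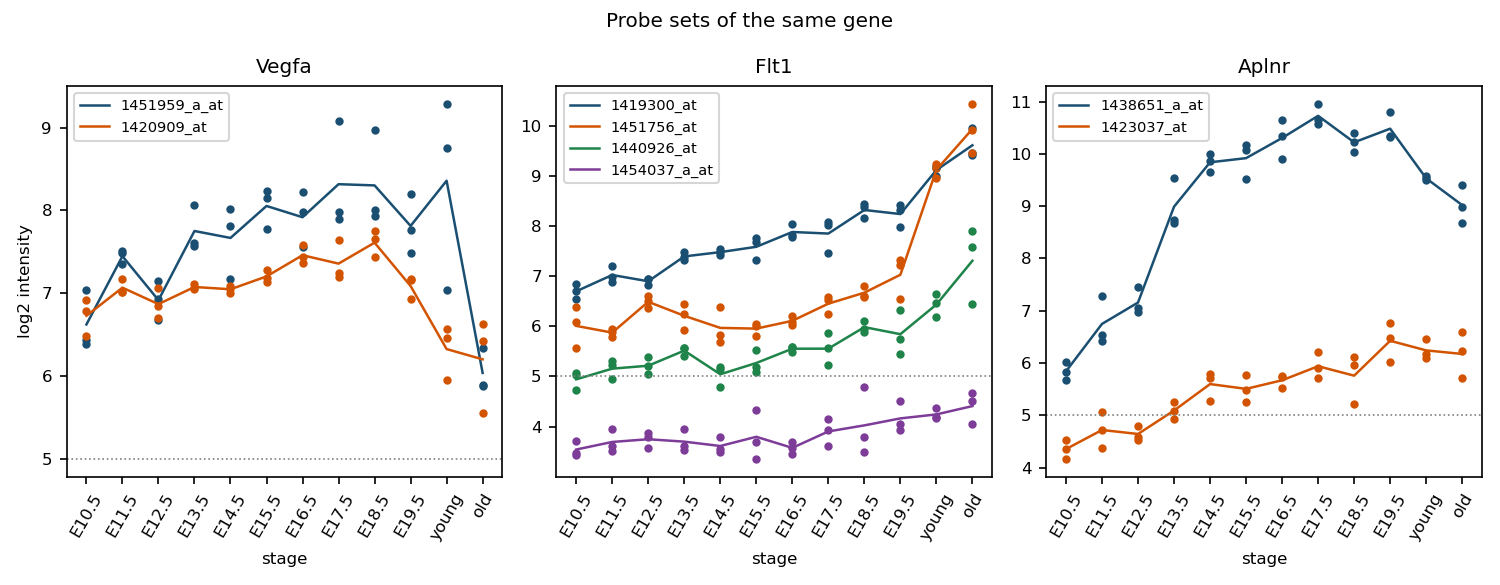
Level (log2 intensity, vertical axis) by stage (horizontal axis) of every probe set of Vegfa, Flt1 and Aplnr; points are arrays, lines join the stage means and the dotted line is the expression limit of 5. The Vegfa probe sets part in young adults (means 8.36 and 6.33), and Flt1 1451756_at stays between 5.87 and 6.49 until E16.5 and then reaches 9.93 in old adults.

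Angpt1, the ligand of Tek, went the other way. Its arrays had levels of 8.54, 8.75 and 8.19 at E10.5 and 5.65 (female), 5.15 (male) and 5.13 (mixed) at E19.5. The groups were far apart, and the gene fell by 3.18 ± 0.40 (SE, adjusted p = 1.55e-07 in limma), 9.09-fold. The stage mean was 7.99 ± 0.26 at E12.5, 6.90 ± 0.28 at E13.5, 6.15 ± 0.53 at E14.5 and 4.87 ± 0.56 at E17.5, its lowest (SD, n = 3). No single day passed the test. In young adults the mean was 6.17 ± 0.41, and the difference from E19.5 of 0.86 did not pass (adjusted p = 0.110). The old adult arrays ranged from 4.68 (mixed) through 5.58 (male) to 7.43 (female), a wider spread than at any other stage (SD 1.40). The second probe set, 1421441_at, was under 5 at every stage. It changed over the embryonic days (range of means 0.83, F test adjusted p = 0.000442), but its difference between E10.5 and E19.5, -0.38, did not pass and the groups overlapped (adjusted p = 0.0968). Within stages the level of Angpt1 went against that of the hybridization controls (r = -0.56, permutation p = 0.00023), and with that level as a covariate the fall to E19.5 was -2.04 (adjusted p = 0.0014), while the difference from E10.5 to young adults was -0.26 (adjusted p = 0.839) in place of -2.33 (adjusted p = 1.06e-05).

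Apln, the apelin gene, was dim but even. It had levels of 4.99, 4.69 and 5.11 at E10.5 and 5.65 (female), 6.05 (male) and 6.16 (mixed) at E19.5, a rise of 1.02 ± 0.18 (SE, adjusted p = 3.72e-05 in limma). From E16.5 to old adulthood its means lay between 5.85 and 6.07, and none of the neighbouring stages differed beyond their spread. The difference between young adults and E19.5 was 0.12 (95% interval -0.26 to 0.49) and that between old and young adults -0.01 (95% interval -0.38 to 0.37). With the hybridization control level as a covariate, the difference to E19.5 was 0.63 (adjusted p = 0.0521) and that from E10.5 to young adults 0.43 (adjusted p = 0.400) in place of 1.14 (adjusted p = 3.78e-06).

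Aplnr, the apelin receptor, had the largest range of the 10 genes, 4.89 on the log2 scale or 29.6-fold between its lowest and highest stage mean. Its 3 arrays at E10.5 had levels of 5.83, 5.68 and 6.02, and at E11.5 of 6.43, 6.54 and 7.28, a difference of 0.91 ± 0.23 (SE, adjusted p = 0.0315 in limma) with no overlap. No member passed in this step with quantile renormalization, with the control level as a covariate, in a model of these 6 arrays alone or in 4 of the 6 fits without 1 of them. From E12.5, with 7.45 (female), 7.05 (male) and 6.98 (mixed), to E13.5, with 8.74, 8.68 and 9.54, it rose by 1.83 ± 0.23 in a single day (adjusted p = 8.85e-05). The means then climbed to 9.84 at E14.5 and 10.7 at E17.5. At E19.5 the arrays had levels of 10.3 (female), 10.3 (male) and 10.8 (mixed), 4.64 ± 0.23 above E10.5 (adjusted p = 4.28e-16), and 24.9-fold in linear terms. In young adults all 3 arrays lay between 9.49 and 9.57, below all E19.5 arrays, a fall of 0.95 ± 0.23 (adjusted p = 0.0022). Old adults were lower again, from 8.67 to 9.40, with no overlap, but the difference of -0.51 did not pass (95% interval -0.99 to -0.03, adjusted p = 0.183). The dimmer probe set 1423037_at rose by 2.07 ± 0.23 to E19.5 (adjusted p = 1.23e-08) and differed by -0.18 between E19.5 and young adults (adjusted p = 0.595), so the fall after birth was seen in 1 of the 2 probe sets. Within stages the level of 1438651_a_at went with that of the hybridization controls (r = 0.71, permutation p = 1e-05, the smallest these permutations can give), and with the covariate the difference to E19.5 was 3.82 (adjusted p = 1.39e-13). With that covariate the difference between old and young adults was 0.011 in place of -0.51.

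Both VEGF receptors rose. Flt1 had levels of 6.85, 6.55 and 6.70 at E10.5 and 8.42 (female), 8.31 (male) and 7.98 (mixed) at E19.5, and of 8.99 (female), 9.19 (male) and 9.16 (mixed) in young adults. No array of one of these stages overlapped with another stage. The rise was 1.54 ± 0.16 to E19.5 (SE, adjusted p = 4.27e-09 in limma) and a further 0.88 ± 0.16 to young adulthood (adjusted p = 6.55e-05). Its probe set 1451756_at split this course differently: its means lay between 5.87 and 6.67 from E10.5 to E18.5, with 7.03 at E19.5, and it then rose by 2.09 ± 0.21 to young adults (adjusted p = 4.2e-09). Between old and young adults, 1451756_at rose by 0.81 (adjusted p = 0.0186) and 1440926_at by 0.87 (adjusted p = 0.0236), the latter with groups that overlapped, while the difference of 0.49 for the probe set read did not pass (adjusted p = 0.0545). Which transcripts the probe sets detect is not given in the sources used here.

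Kdr had levels of 7.05, 7.32 and 6.71 at E10.5, and its means from E10.5 to E14.5, between 6.78 and 7.10, lay within the spread of E10.5. At E19.5 the arrays had levels of 8.34 (female), 8.28 (male) and 7.78 (mixed), a rise of 1.11 ± 0.18 from E10.5 (adjusted p = 1.4e-05). Young adults, from 8.15 to 8.22, did not differ from E19.5 beyond the spread (difference 0.04, 95% interval -0.33 to 0.42). In old adults the levels were 8.53 (female), 8.79 (male) and 9.62 (mixed), a rise of 0.81 ± 0.18 (adjusted p = 0.0072). Without the mixed old array it was 0.49 (adjusted p = 0.0774), and in a model of the 6 adult arrays alone it did not pass (adjusted p = 0.220).

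Tek traced a trough. At E10.5 its levels were 8.69, 8.80 and 8.43, and the means at E11.5 (8.56) and E12.5 (8.58) lay within that range. By E17.5 and E18.5 the means were 6.73 ± 0.80 and 6.75 ± 0.85, with the mixed array of each day far below the others, at 5.81 and 5.82, against 6.91 to 7.50 for the female and male arrays. At E19.5 the levels were 7.98 (female), 7.86 (male) and 7.12 (mixed), a fall of 0.99 ± 0.33 from E10.5 (adjusted p = 0.0166 in limma). Young adults lay between 7.83 and 7.98 and old adults between 8.35 and 8.67, and neither difference passed (young minus E10.5 -0.74, adjusted p = 0.0523; old minus young 0.56, adjusted p = 0.320). The level of Tek went against that of the hybridization controls within stages (r = -0.80, rho = -0.74, permutation p = 2e-05 and 0.00011), the largest r in size of the 17 probe sets though not the largest rho, and with that level as a covariate the difference to E19.5 was 0.37 (adjusted p = 0.447) and that from E10.5 to young adults 1.71 (adjusted p = 0.00185). The call to E19.5 was also lost without the mixed E19.5 array (adjusted p = 0.125), without the second E10.5 array (adjusted p = 0.0617) and with quantile renormalization (adjusted p = 0.130).

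**Figure D4:**
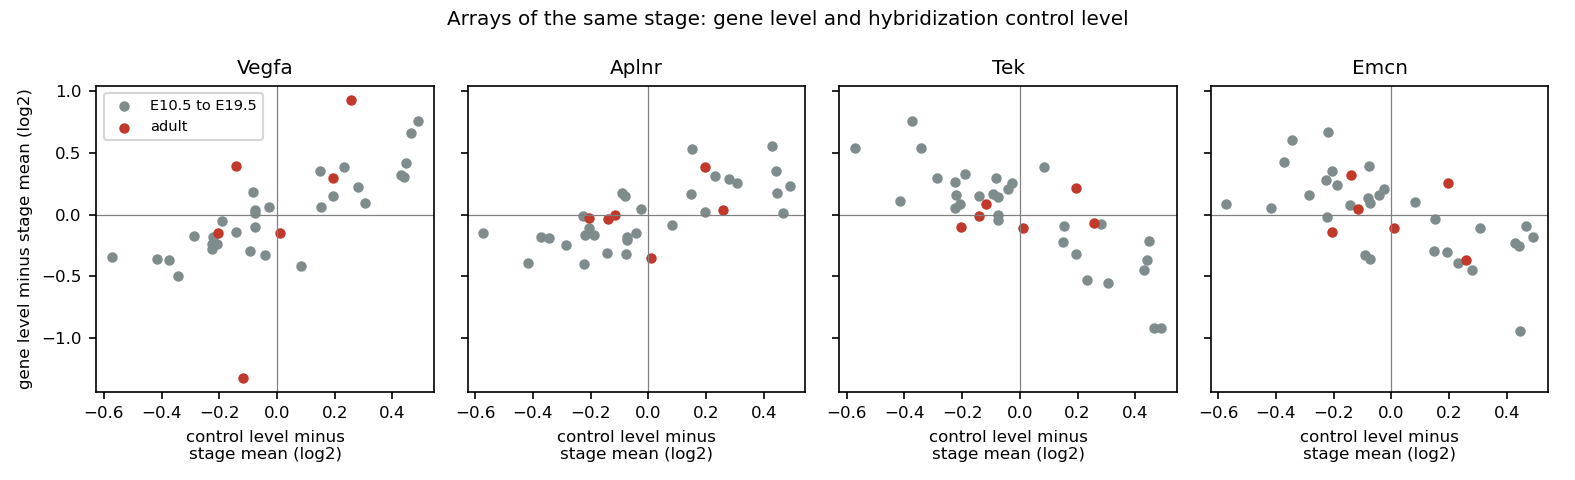
Level of 4 genes minus the mean of their stage (log2, vertical axis) against the mean level of the hybridization controls minus its stage mean (log2, horizontal axis); each point is 1 of the 36 arrays, with adult arrays in red. Vegfa and Aplnr run upwards (r = 0.70 and 0.71), Tek and Emcn downwards (r = -0.80 and -0.64).

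This relation with the controls was computed for all 17 probe sets, and likewise with the log2 difference between the 3′ and 5′ Gapdh control probe sets, a measure of RNA or cDNA integrity, 34 relations in all. After adjustment over the 34, 7 relations passed, all with the hybridization controls: Vegfa 1451959_a_at, Aplnr 1438651_a_at, Tek, Angpt1 1439066_at, Emcn (r = -0.64), Cdh5 1433956_at (r = -0.59) and Flt1 1451756_at (r = -0.47). Without the 2 arrays farthest from the median control level, these r were 0.69, 0.73, -0.82, -0.54, -0.61, -0.58 and -0.45. Of all probe sets above the expression limit, 5.82% had a relation at least as strong as that of Tek and 31.7% one at least as strong as that of Cdh5, so such relations were common on these arrays. Within a stage the control level thus moved with the level of these probe sets in both directions. Between stages it differed as well, though not steadily with age, being lower on the old than on the young adult arrays. The part of the control level in the stage differences was not tested beyond the covariate. The Gapdh difference had no relation that passed within stages but differed between them, with a mean of 3.94 ± 0.20 on the E19.5 arrays, 1.84 ± 0.43 on the young adult and 2.32 ± 0.28 on the old adult arrays (SD, n = 3). It was thus lower on the adult arrays than on those of E19.5, and Pecam1, Emcn and Flt1 were higher there. Among embryonic stages it differed as well. Its mean was 2.80 ± 1.00 on the E10.5 arrays and 4.17 ± 0.47 on those of the next day. Between E12.5 and E13.5 the mean went from 3.51 ± 0.76 to 4.70 ± 0.08. Aplnr passed in these daily steps. The part of the Gapdh difference in all these rises, and in the differences between E10.5 and E19.5, was not tested.

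Of the junction genes, Cdh5 rose before birth and Pecam1 after it. Cdh5 had levels of 6.98, 7.21 and 6.73 at E10.5 and 8.33 (female), 8.16 (male) and 7.48 (mixed) at E19.5, a rise of 1.02 ± 0.22 (SE, adjusted p = 0.000447 in limma). Young adults, between 7.85 and 8.23, overlapped with E19.5 (difference 0.08, 95% interval -0.37 to 0.53), and so did old adults with young (0.49, adjusted p = 0.178). The other Cdh5 probe set stayed under 5 at every stage.

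Pecam1 was not above the expression limit in the embryo, with stage means between 3.59 and 4.18. In young adults its levels were 5.95 (female), 5.73 (male) and 5.32 (mixed), above all E19.5 arrays, and the rise passed (adjusted p = 0.000221). With a mean of 4.16 at E19.5, below the expression limit, and 5.66 in young adults, no exact fold is given. In old adults they were 6.45 (female), 6.56 (male) and 7.54 (mixed), a further 1.19 ± 0.30 (adjusted p = 0.014), which was 0.84 without the mixed old array (adjusted p = 0.105) and 1.01 without the mixed young array (adjusted p = 0.0743), and did not pass in a model of the 6 adult arrays alone (adjusted p = 0.145). The array has 1 probe set with this symbol, so the low embryonic signal cannot be compared with a second one.

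Emcn had levels of 5.94, 6.33 and 4.71 at E10.5, a wide spread, and its lowest mean, 4.17 ± 0.52, at E14.5. At E19.5 it was at 5.58 (female), 5.50 (male) and 4.95 (mixed), and the difference from E10.5 did not pass (-0.32, 95% interval -0.92 to 0.28). It then rose by 1.80 ± 0.30 to young adults (adjusted p = 1.55e-05), whose arrays had 7.19 (female), 6.78 (male) and 7.47 (mixed). All old arrays, between 7.82 and 8.22, were above all young ones, and the difference of 0.82 did not pass (adjusted p = 0.0874).

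**Figure D5:**
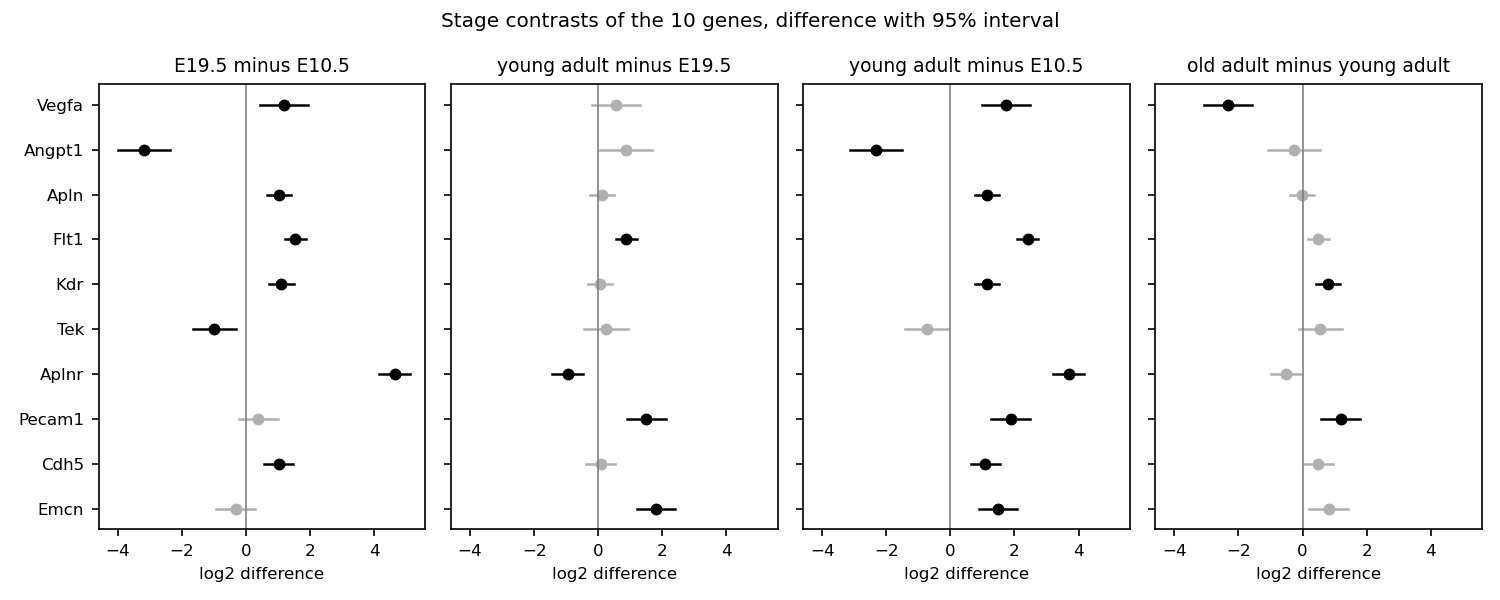
Log2 difference (horizontal axis, later minus earlier stage) of the 10 genes in 4 contrasts; points are limma estimates from the probe set read for a gene, bars are 95% intervals not adjusted for the number of tests, and black marks an adjusted p under 0.05. Between E10.5 and E19.5 Angpt1 and Tek lie left of 0 and Aplnr far right at 4.64, and only Pecam1, Emcn and Flt1 rose between E19.5 and young adulthood.

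The endothelial share of the heart may itself differ between stages, so each gene was also set against the mean of Pecam1 and Cdh5 on the same array. Of the 7 other vessel growth genes (without Emcn), 4 then differed between E10.5 and young adults, 4 between E10.5 and E19.5, 3 between E19.5 and young adults and 4 between young and old adults, but this subtraction shifts every probe set and 91.2%, 40.9%, 63.5% and 76.3% of all passed in the same contrasts. Relative to the change of that reference from E10.5 to E19.5, Aplnr changed by 3.94, Angpt1 by -3.89, Tek by -1.69 and Flt1 by 0.84 (adjusted p between 1.66e-17 and 0.00988 in limma). Angpt1 is made by heart muscle and perivascular cells, so for it the subtraction does not correct for the endothelial share. Which cells made Vegfa cannot be told in whole tissue, so the same limit may apply to it. The difference of Kdr, 0.41, did not pass (adjusted p = 0.189), but did with Emcn added to the reference (0.75, adjusted p = 0.0151). From E19.5 to young adults Kdr was -0.74 by this measure (adjusted p = 0.0117) and -0.03 against Cdh5 alone (adjusted p = 0.980). Between young and old adults the differences of Kdr (-0.03), Flt1 (-0.35) and Tek (-0.28) did not pass by this measure (adjusted p = 0.903, 0.234 and 0.405). Since Pecam1 was below the expression limit in the embryo, Cdh5 alone was also used. Relative to its change from E10.5 to E19.5, Aplnr changed by 3.62 (adjusted p = 4.34e-12 in limma) and Flt1 no longer passed (0.52, adjusted p = 0.0564).

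No member probe set differed between the sexes in 9 male and female pairs of arrays from E13.5 to old adulthood (limma with the stage as a block, 0 of 17; 0.0488% of all probe sets did). At an unadjusted p under 0.05 there were 4, beside 7.8% of all: Tek, with males lower in 8 of 9 pairs (-0.30 ± 0.096, adjusted p = 0.526), Emcn and Cdh5 1422047_at, both also lower in 8 of 9, and Angpt1, lower in 7 of 9. The male minus female difference of Vegfa 1451959_a_at was 2.25 in the young adult pair and 0.01 in the old adult pair. The difference between the 2 adult and 7 embryonic pairs passed for 0 of 17 members, and for 0.548% of all (unadjusted, 3 members and 13.9% of all).

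A further 12 genes of the same signalling systems were measured, from a list of related genes. From E10.5 to young adults, 8 of them rose and 1 fell, and their median difference was 0.58. Over all probe sets 35.9% rose and 27.1% fell, and the median was 0.19. The VEGF co-receptor Nrp2 rose by 2.71, from 5.68 ± 0.27 to 8.39 ± 0.15 (SD, n = 3; adjusted p = 4.8e-16 in limma), while its relative Nrp1 differed by -0.16 (adjusted p = 0.486). The phosphatase gene Ptprb (VE-PTP), whose product acts on Tie2 and VE-cadherin, rose by 2.78 (adjusted p = 8.13e-17), 1.71 of it after E19.5. The context-dependent Tie2 antagonist Angpt2 rose by 0.86 (adjusted p = 4.37e-05), the placental growth factor Pgf by 1.15 and Vegfd by 1.91, whereas the orphan co-receptor Tie1 differed by 0.20 (adjusted p = 0.416). Apela, the second ligand of Aplnr, fell below the expression limit, and its fall from E10.5 passed (adjusted p = 1.5e-12 in limma). Its mean went from 6.34 ± 0.056 at E12.5 to 4.84 ± 0.46 at E13.5 and 3.60 ± 0.26 at E14.5, and no test of these single days is given for it. The mean of Aplnr rose on these days, as on every other day up to E17.5. Between E10.5 and E11.5, Vegfc (1.00) and Vegfd (1.53) rose, and between young and old adults Flt4 (0.40) and Nrp1 (0.65) did.

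Genes that mark endothelium in general mostly rose. Of 21, 15 rose and none fell from E10.5 to young adults (median 1.51), 14 rose and 1 fell to E19.5 (median 1.19), 7 rose and 2 fell from E19.5 to young adults, and 4 rose from young to old adults (median 0.57). Over all probe sets, 35.9% rose and 27.1% fell from E10.5 to young adults, and 23.7% and 21.8% to E19.5. From E19.5 to young adults these shares were 13.6% and 15.5%, and 3.83% rose from young to old adults. The guidance receptor Robo4 rose by 3.92, the von Willebrand factor gene Vwf by 3.00 and the tight junction gene Cldn5 by 2.98 (adjusted p = 1.46e-17, 3.08e-11 and 3.16e-13). The 9 genes of a heart capillary list, of which only some act in lipid uptake or transport, all rose (median 4.64), Fabp4 from 3.17 to 12.3. In contrast the 4 genes of an endocardial list, not all of them particular to endocardium, all fell (median -1.22). Plvap, of fenestral diaphragms, fell by 2.09 and the natriuretic peptide receptor Npr3 by 1.86. The arterial and tip cell list was mixed (5 of 9 rose and 2 fell, median 0.43). So was the venous and lymphatic list (1 of 5 rose and 1 fell, median 0.20). Of 9 genes of the hypoxia response, of which Vegfa is a classical target, 2 rose and 6 fell (median -1.17). The glucose transporter gene Slc2a1 fell by 4.58 and Hif1a by 2.88, and its relative Epas1 rose by 3.23.

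Markers of other cells of the heart moved over the same stages. Of the pericyte and mural genes, which sit on the outside of capillaries and are a source of Angpt1, 4 rose and 2 fell between E10.5 and young adults. All 5 megakaryocyte and platelet genes rose, of which Pf4 from 7.10 to 8.48, and platelets also carry Pecam1; all 5 macrophage genes rose (median 4.28). Of the 7 cardiomyocyte genes, 1 rose and 3 fell (median -0.19), and 5 of 6 erythroid genes fell. Of 6 fibroblast genes 2 rose and 2 fell, and of 5 epicardial genes 1 rose and 3 fell. All 5 genes of cell proliferation fell (median -4.50). All 4 adipocyte genes measured rose (median 1.65), Adipoq from 2.32 to 5.14, but only 2 of them were above the expression limit at any stage. Of the 4 liver genes measured, all below that limit, 3 also rose (median 0.67). Adipocytes also express Fabp4. The part of these cells in the differences of the 10 genes was not tested. Over all probe sets, 35.9% rose and 27.1% fell between E10.5 and young adults (median 0.19), so mixed counts in a short list are common. The lists were described by counts and medians only.

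Over the 12 stage means, the courses of Kdr, Cdh5 and Flt1 ran together (r = 0.97 for Kdr and Cdh5, 0.96 for Flt1 and Cdh5, 0.95 for Kdr and Flt1), and Angpt1 ran against Aplnr (r = -0.97) and with Tek (r = 0.83). Among 13163 probe sets of other genes with a stage mean above 5 and a range over 1, those most like Aplnr were Col14a1 (r = 0.99), Rdh14 and D130051D11Rik (both 0.98), those most like Kdr were Gpam, Fyco1 and Pcdh19 (0.98 to 0.99), and those most like Cdh5 were Anxa1, St8sia6 and Ets2 (all 0.98). For Flt1 they were Rcan2, Helz2 and Appl2 (all 0.99), for Tek Ppp2r2a, Rpl4 and Tuba1a (all 0.98), and for Angpt1 Dnttip2 (0.99), D10Wsu102e and Myl7 (both 0.98). For Emcn they were Rnh1, Nop53 and Nck1, for Pecam1 C1s1, Ifit1 and Apod, for Apln A130088B03Rik, Fabp4 and Dpt (all 0.99), and for Vegfa Snrnp48, Rufy2 and Ankhd1 (0.95 to 0.96). These are descriptions over 12 stages that share arrays and their control levels, and with so many candidates a high r is found for any course.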

How the data were processed

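The authors extracted total RNA from hearts, amplified and biotin-labelled it (3′ IVT Express kit) and hybridised it to 1-colour Affymetrix Mouse430 2.0 arrays. The deposited values are log2 intensities made by the authors with robust multi-array average (RMA), and the submitters' processing notes name Affymetrix Expression Console and Partek 6.6. The notes used here do not give further settings. The extraction protocol in the labels names another tissue and RNA kit than the methods.

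The deposited log2 values were used without further scaling. Symbols of other genes that had lost letters or were out of date in the deposited table were replaced through gene IDs and RefSeq (GRCm38.p6). A gene was read from its probe set of highest mean over the 36 arrays. Stage means were fitted over all 36 arrays and 45101 probe sets (limma 3.58.1 in R 4.3.3; 24 residual degrees of freedom), with Benjamini-Hochberg adjustment over all probe sets; the model was tested on simulated data. Sexes were compared on 18 arrays with stage as a block. Relations with control probe sets used 100000 permutations within stages, two-sided. The members and the lists of related genes were chosen with earlier results of these data known. The alternatives were quantile renormalization, median centring, an expression filter, another variance prior, the sex label or the control level in the model, only the stages compared, other readings of a gene and leaving out each array. E10.5 and E11.5 share replicate numbers 1 to 3, but nothing ties these to litters or days, so they were not treated as pairs. Named were all members with every probe set, at most 3 genes of each list with the largest differences among those that passed, any gene of the signalling list, and per member the 3 other genes of highest r. The number of arrays limits the precision.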

Additional observations from a re-analysis of the deposited data

How the results depend on the processing

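Counts below are of the 17 member probe sets at an adjusted p under 0.05 unless said otherwise. Across the alternatives, the 24 gene differences that had passed the test kept their direction in every setting except with the hybridization control level as a covariate. With that covariate, 3 of them turned (Vegfa and Tek to E19.5, -0.13 and 0.37, and Vegfa from E10.5 to young adults, -0.64) and 3 no longer passed (Angpt1 and Apln from E10.5 to young adults and Apln to E19.5). Quantile renormalization lost 1 call (Tek to E19.5), fitting only the 6 arrays compared lost 3 (Vegfa, Kdr and Pecam1 from young to old adults), and leaving out 1 array lost 6 in all, given with the results. Among the differences that had not passed, the control level covariate gave 1.71 for Tek from E10.5 to young adults and 0.63 for Emcn to E19.5. It gave -0.51 and -0.20 for Vegfa and Apln from E19.5 to young adults. From young to old adults it gave -0.31, 0.25 and 0.011 for Tek, Apln and Aplnr. With this covariate the counts were 8 in place of 13 to E19.5 and 3 in place of 5 from young to old adults. They were 0 in place of 1 from E10.5 to E11.5. The covariate also put 2 in place of 1 past the study's limits from E19.5 to young adults.

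The single call from E10.5 to E11.5 was also lost with quantile renormalization (0), with only the 6 arrays of both stages (0) and with these and the replicate number of the labels as a block (0). With the sex label as a replicate block in the whole model the young adult against E10.5 count was 15 in place of 14. Median centring gave 7 in place of 3 past the study's limits from E10.5 to young adults and 0.024 for Emcn to E19.5, and a log2 limit of 1 gave 8. With only the 6 arrays compared, 1 in place of 3 passed the study's limits to E19.5, 0 in place of 1 from E19.5 to young adults, and 0 in place of 5 changed from young to old adults. The mean over a gene's probe sets gave -0.11 for Vegfa from E19.5 to young adults. With Cdh5 alone as the endothelial level, an alternative chosen after seeing the data, 1 in place of 4 genes differed between young and old adults. Without the mixed arrays of E17.5 and E18.5, also chosen after seeing the data, all 24 gene differences still passed. These arrays belong to none of the stages compared, so the differences could not change and only the shared variance estimate could. This setting is therefore hardly a check of those calls. The causes were not tested.

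With any 1 array left out there were 0 to 2 calls from E10.5 to E11.5 and 1 (without the mixed old array) to 8 (without the female old array) from young to old adults. Past the study's limits it gave 0 to 1 from E19.5 to young adults (0 without the mixed E19.5 array) and 0 to 1 from young to old adults. Differences near 0 changed sign in this way: Emcn to E19.5 (-0.79 to 0.016), Apln (-0.036 to 0.22), Kdr (-0.13 to 0.15), Tek (-0.020 to 0.41) and Cdh5 (-0.18 to 0.25) from E19.5 to young adults, and Apln (-0.10 to 0.069) and Angpt1 (-1.03 to 0.34) from young to old adults.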
